A study of Mus musculus with 46 samples.

Results

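Macrophages and monocytes of the mouse colon were described in a single-cell experiment of 3 count matrices, deposited under the names Met, Ime and CT. A cell was included when it had 200 or more detected genes, no unique molecular identifier (UMI, 1 captured and counted molecule) of the epithelial gene Epcam, the T cell gene Cd3e or the B cell gene Cd79a, and at least 1 UMI for 3 or more of 7 markers, namely Csf1r, C1qa, C1qb, C1qc, Lyz2, Cd68 and Adgre1. This rule kept 635 of 25661 cell barcodes: 310 of 12928 in Met, 129 of 4732 in Ime and 196 of 8001 in CT. Because the cells were chosen by these readouts, the marker levels and the genes that set the cells apart are given as a description, with no test.

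Colonic macrophages sit in the lamina propria, the submucosa and the muscle layer, and are replenished in large part by blood monocytes that enter through the receptor Ccr2 and mature in the tissue. They depend on signals through Csf1r, take up dying cells and bacteria, present antigen on MHC class II and produce complement C1q. Long-lived resident macrophages near vessels, nerves and muscle carry genes such as Lyve1, Folr2, Timd4 and Cd163, and conventional dendritic cells share MHC class II and several myeloid genes with macrophages.

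The study compared metformin, a biguanide used to lower blood glucose, with imeglimin, a structurally related tetrahydrotriazine compound. For the single cells, male C57BL/6J mice had metformin or imeglimin in their drinking water for 12 weeks, and colon was fixed with formaldehyde, dissociated and hybridised to a probe set of 19070 genes (10x Fixed RNA Profiling). A second experiment measured whole colon by bulk RNA sequencing after 4 weeks of metformin at 3 mg/mL, imeglimin at 3 mg/mL or no drug (Control) in drinking water, with 3 libraries per group. The 3 matrices belong to 1 deposited sample that lists all treatments, so their link to metformin, imeglimin and control rests on their names, and with 1 matrix each there is no replicate and no test between them.

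The matrices differed in depth, and this touches every comparison below. Members had a median of 2685.5 UMIs in Met, 814 in Ime and 1190 in CT, and all cells had medians of 5496.5, 1354.5 and 2341 UMIs. Droplet barcodes without the probe barcode were shared with another matrix for 2522 Met, 1461 Ime and 2140 CT cells, 60, 41 and 32 of the members among them, while no full barcode was shared. Intervals given below are exact Poisson or binomial 95% intervals and cover counting error only.

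Members made up 2.40% of cells in Met (2.14 to 2.68), 2.73% in Ime (2.28 to 3.23) and 2.45% in CT (2.12 to 2.81), and these intervals overlapped. The step that removed Epcam-positive cells weighed unequally: 3 or more markers were detected, whatever the Epcam, Cd3e or Cd79a count, in 1380 cells (10.7%) of Met, 160 (3.38%) of Ime and 302 (3.78%) of CT, and 814, 20 and 49 of those held 2 or more Epcam UMIs. When every cell was thinned to 500 UMIs, 2.29% of Met cells (2.04 to 2.56), 1.93% of Ime cells (1.56 to 2.37) and 1.83% of CT cells (1.55 to 2.15) met the rule. As shares of all cells these lay close together in the 3 matrices under both counts. Epcam-positive cells, however, made up 80.3% of cells in Met, 54.8% in Ime and 63.0% in CT. Among cells with no Epcam, Cd3e or Cd79a UMI, members were 15.5% in Met (14.0 to 17.2), 6.74% in Ime (5.66 to 7.96) and 8.56% in CT (7.45 to 9.78). The comparison of shares thus depends on the cells taken as the total.

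Macrophage genes outside the rule were well above the level of other cells. Of 25 further macrophage genes that the rule did not use and the probe set held, all were detected, and their summed level was 23504 CPM (the UMIs of a gene relative to all UMIs of the same cells, scaled to a fixed total) in Met members, 22074 in Ime and 27359 in CT, against 1861, 1489 and 1606 CPM in the other cells of the same matrices. The monocyte list, which holds Ccr2 and Plac8, summed to 2815, 1685 and 2202 CPM in members and to 2934, 1989 and 1903 CPM in the other cells, and Ly6c2 and Cx3cr1 were not probed. Fn1, on that list but also made by fibroblasts, gave 1411 of the list's 2671, 197 and 616 UMIs in Met, Ime and CT members, and 1063 of those lay in a cluster of 29 cells led by collagen genes. The sum is thus no measure of monocyte genes alone. No separate count of monocytes is given.

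Of the 4 markers with a promoter in the tables of RefSeq (GRCm38.p6), the 3 shown, as 250 bases upstream of the start and all on the minus strand, were chosen because they carry the letters AGGAAGT, a core to which ETS factors such as the macrophage regulator PU.1 (Spi1) are known to bind. The capitals mark the match, which reads ACTTCCT on the printed strand.
C1qb: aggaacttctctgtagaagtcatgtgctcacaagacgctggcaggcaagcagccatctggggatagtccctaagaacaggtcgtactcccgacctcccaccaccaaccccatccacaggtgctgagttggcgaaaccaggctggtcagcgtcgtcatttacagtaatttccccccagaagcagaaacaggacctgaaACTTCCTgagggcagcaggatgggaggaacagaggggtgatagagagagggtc
C1qc: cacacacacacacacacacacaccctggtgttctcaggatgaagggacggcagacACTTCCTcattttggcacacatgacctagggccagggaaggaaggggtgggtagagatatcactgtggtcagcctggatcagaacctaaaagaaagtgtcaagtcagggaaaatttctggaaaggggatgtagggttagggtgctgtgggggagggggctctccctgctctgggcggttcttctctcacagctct
Lyz2: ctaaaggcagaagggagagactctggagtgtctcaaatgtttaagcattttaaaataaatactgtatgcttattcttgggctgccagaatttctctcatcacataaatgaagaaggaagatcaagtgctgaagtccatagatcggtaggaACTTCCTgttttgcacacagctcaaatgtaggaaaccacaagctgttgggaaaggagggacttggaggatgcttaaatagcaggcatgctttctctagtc
The windows are chr4:136886201-136886450 for C1qb, chr4:136892915-136893164 for C1qc and chr10:117282273-117282522 for Lyz2, and the match begins 53, 195 and 100 bases before the start. The letters were searched on both strands. They occurred in these 3, not in the window of Cd68, and in 2377 of 27025 promoters of all genes (8.8%). A match is a description of the sequence and no evidence of binding.

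C1qb, a chain of the complement recognition protein C1q, was the most abundant marker at 2545 CPM in Met, 4541 in Ime and 4450 in CT, detected in 278, 122 and 181 members. Csf1r, the receptor for colony stimulating factor 1, stood at 1602, 1685 and 1830 CPM in the same order of matrices. Lyz2, which encodes lysozyme, stood at 1783 CPM in Met, 2018 in Ime and 2373 in CT. All 3 genes were thus lowest in Met, while the other 4 markers were not. C1qa reached 1456, 812 and 1087 CPM, C1qc 771, 522 and 579 CPM, the lysosomal glycoprotein gene Cd68 443, 419 and 325 CPM, and Adgre1, which encodes the F4/80 antigen, 594, 428 and 518 CPM in Met, Ime and CT. No marker differed by 2-fold between any pair of matrices. Epcam-positive cells carried each marker as well, at 1.45 CPM (Adgre1, Ime) to 31.8 CPM (C1qb, Met).

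**Figure D1:**
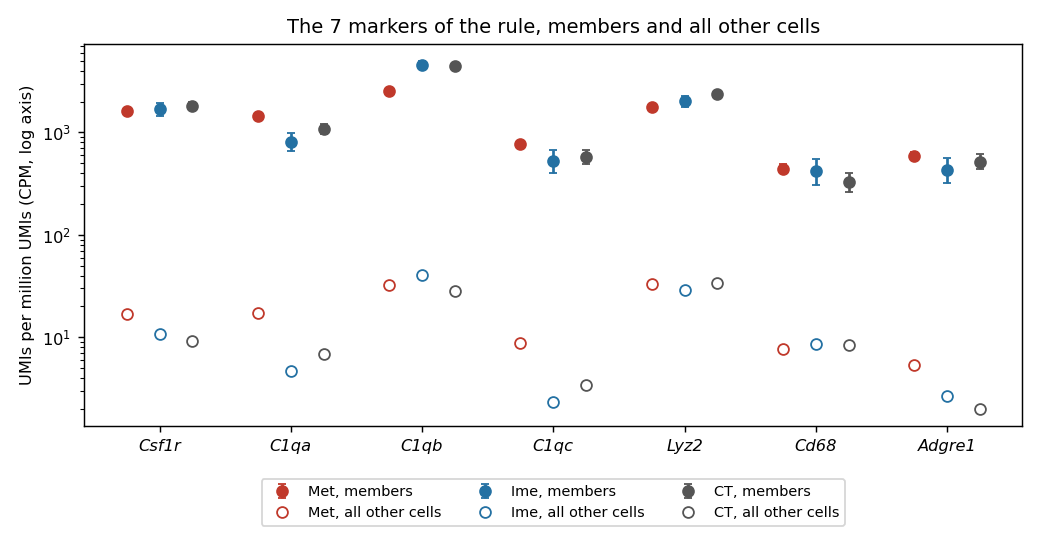
Level of the 7 markers in CPM on a log axis, per matrix, for members (filled) and all other cells (open), with 95% counting intervals. Members lie well above other cells for every marker, with C1qb at 2545 CPM in Met, 4541 in Ime and 4450 in CT.

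The number of markers per cell followed depth. All 7 were detected in 85 Met, 2 Ime and 15 CT members, and exactly 3, the smallest number allowed, in 60, 58 and 50. Just outside the rule, 95 Met, 73 Ime and 69 CT cells had exactly 2 markers. Across that edge C1qb stood at 502 CPM with 3 markers and 303 CPM with 2 in Met, at 3457 and 1933 CPM in Ime, and at 1886 and 1544 CPM in CT. C1qb is itself a marker of the rule, so this order follows from the choice. Genes that the rule did not use did not all share it: Cd163 stood at 179.6 CPM with 3 markers and 231 CPM with 2 in Met, and Cd74 at 10192 and 11950.5 CPM in CT.

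The 3 chains of C1q, which assemble in equal amounts in the protein, were counted in unequal ratios. C1qb had 1.75 UMIs per C1qa UMI in Met members (1.64 to 1.87), 5.59 in Ime members (4.49 to 7.03) and 4.10 in CT members (3.61 to 4.66). The same ratio was 1.88 (1.80 to 1.95), 8.65 (6.66 to 11.4) and 4.17 (3.66 to 4.76) in the other cells of Met, Ime and CT. The order of the matrices was therefore the same in members and in other cells. C1qc stayed at 0.530, 0.642 and 0.533 UMIs per C1qa UMI in members of Met, Ime and CT. The lower C1qb level in Met members, 0.572 times that in CT (0.534 to 0.613), thus stood beside a C1qa level of 1.34 times CT (1.18 to 1.52) in the same cells. All 3 chains were detected together in 56.5% of Met members (50.7 to 62.0), 14.7% of Ime members (9.11 to 22.0) and 37.8% of CT members (30.9 to 44.9). The part of depth and of the probes in these differences was not tested.

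**Figure D2:**
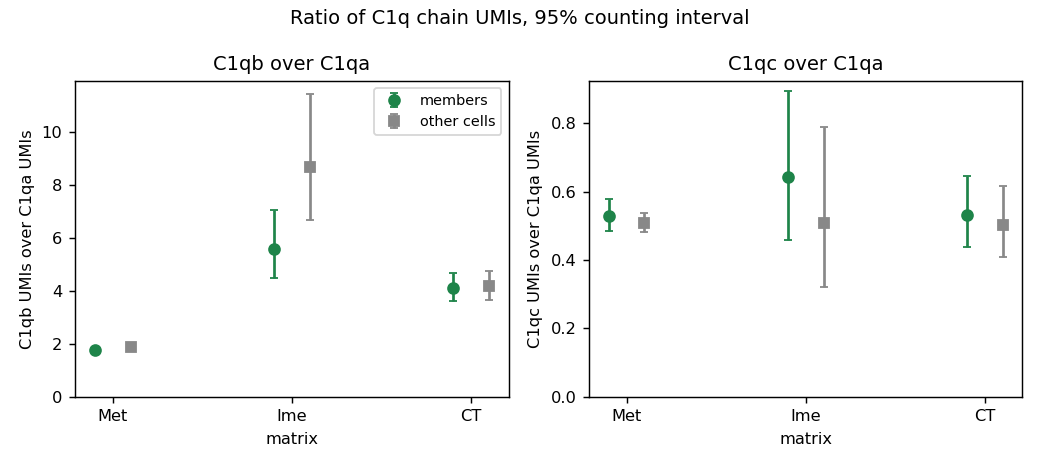
UMIs of C1qb and of C1qc per UMI of C1qa in each matrix, for members and all other cells, with 95% counting intervals. C1qb per C1qa is lowest in Met and highest in Ime in both kinds of cell, whereas C1qc per C1qa lies between 0.503 and 0.642.

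Beyond the markers, Cd74, the invariant chain of MHC class II, was the most abundant gene at 15176 CPM in Met, 13829.5 in Ime and 13626 in CT. It was unevenly spread, with 10758 of its 19831 UMIs in a cluster of 96 cells described below. Apoe, a lipid carrier made by tissue macrophages, followed at 8100, 6278 and 10230.2 CPM. The scavenger receptor gene Stab1 (2477, 2335 and 2595 CPM) and the mannose receptor gene Mrc1 (1718, 1813 and 2023 CPM) were also among the 25 most abundant. So were Igha and Igkc, made by plasma cells, at 5436 and 4876 CPM over all members, and the collagen gene Col3a1 at 2662 CPM.

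The ratio to the other cells was taken over the 3 matrices pooled, which differ in depth. Trem2, a lipid-sensing receptor, was 149.6 times as abundant in members as in other cells, Cd209f 146 times, the haemoglobin scavenger receptor gene Cd163 133 times and the coagulation factor gene F13a1 128 times. The levels behind it differed between matrices, at 94.8, 42.8 and 111 CPM for Trem2 and 98.0, 308 and 214 CPM for Cd209f in Met, Ime and CT members. The membrane-spanning genes Ms4a14, Ms4a7 and Ms4a4a, the metal transporter gene Slc11a1 and the folate receptor gene Folr2 followed at 128, 125, 121, 120 and 118 times. Cytokines were sparse: Il6 had 1 UMI in Met members and 0 in Ime and CT members, and the anti-inflammatory Il10 had 8, 4 and 3. Nos2 had 0 UMIs in all 3. Il10ra, the receptor chain through which colonic macrophages are restrained, was well detected at 329, 257 and 315 CPM in Met, Ime and CT.

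Clustering of the members gave 6 groups, of which 2 were named from markers. Other settings gave 4, 9 or 7 clusters, and membership moved with them. A resident-macrophage-like cluster of 164 cells was led by the lectin genes Cd209f and Cd209g and the chemokine genes Ccl12 and Ccl7. A second resident-macrophage-like cluster of 95 cells was led by Fcna, which encodes ficolin A, and Lyve1, a hyaluronan receptor, at 2436 and 2652 CPM. It also held complement C4b and Ccl24, and its MHC class II genes summed to 6985 CPM, against 19097 CPM in the Cd209f cluster. At a finer resolution 43 of its 95 cells stayed together, and with fewer variable genes 91 of the 164 cells of the Cd209f cluster did.

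Of the 4 unnamed clusters, 1 of 96 cells had the dendritic cell genes Itgae, Clec9a, Xcr1 and Cd209a among its top 10, and its MHC class II genes summed to 81462 CPM. These leading genes came from its Met cells: Itgae had 125 UMIs in 58 Met cells and 0 in 17 Ime and 21 CT cells, and Clec9a had 210, 0 and 3. C1qb in the same cells stood at 1963, 5395 and 3937 CPM in Met, Ime and CT, so the cluster was given no cell type name. The monocyte gene Ccr2 was in its top 10 as well, at 1024 CPM against 81.7 CPM in the other members. Its monocyte list summed to 4267 CPM, against 2148 CPM in the other members. Only 53, 55 and 44 of its 96 cells stayed together at the coarser resolution, at the finer one and with fewer variable genes. A cluster of 126 cells had Mmp13, a collagenase, at 1174 CPM, with the chemokine gene Cxcl16 at 2289 and Itgax at 1095 CPM. Another of 125 cells held macrophage genes together with those of plasma cells and, among its top 10, the muscle genes Cnn1 and Myh11, with Igha at 19728 CPM and the B and plasma cell list at 40556 CPM. The last, of 29 cells, had fibroblast genes at 71631 CPM, Col1a1 at 12631 CPM among them, and a median of 4501 UMIs. The last 2 carried another cell type's leading genes. The cells of Met, Ime and CT fell unevenly among these clusters: 6, 70 and 88 cells in the Cd209f cluster, 54, 30 and 42 in the Mmp13 cluster, 105, 7 and 13 in the plasma-gene cluster, 58, 17 and 21 in the Itgae cluster, 67, 2 and 26 in the Lyve1 cluster and 20, 3 and 6 in the fibroblast-gene cluster. The matrices differ in depth and in some of the genes that define the clusters, so these sizes are not compared. At a coarser resolution, the Cd209f and Lyve1 clusters and most of the plasma-gene cluster joined into 1 group of 380 cells, which held 56.5% of Met members (50.7 to 62.0), 61.2% of Ime members (52.3 to 69.7) and 64.3% of CT members (57.1 to 71.0).

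**Figure D3:**
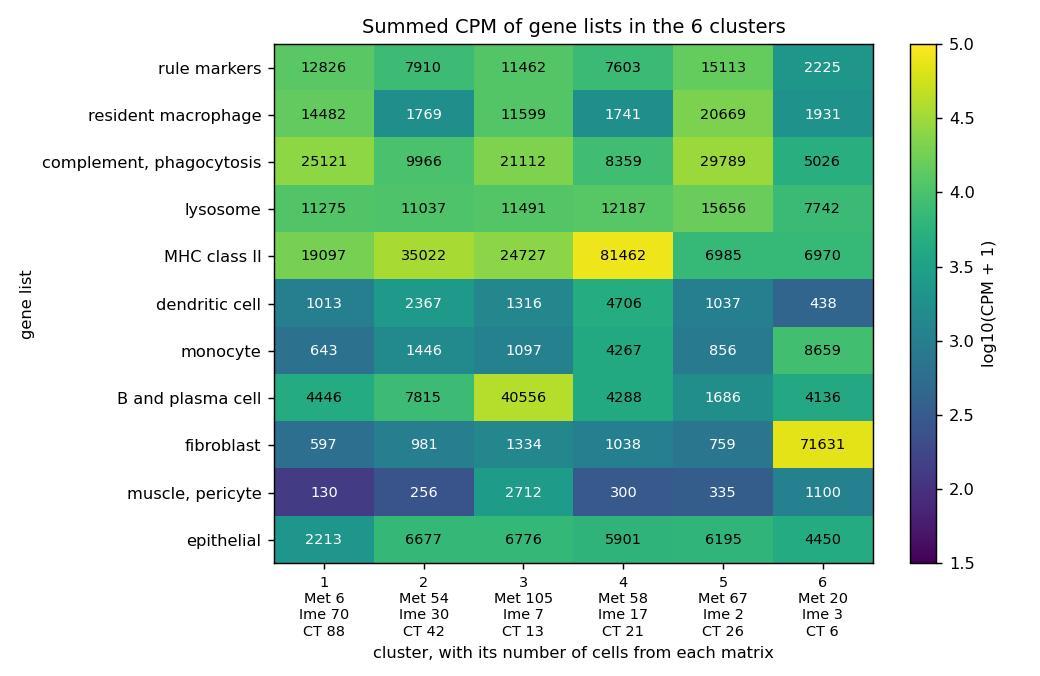
Summed level of marker lists, in CPM, in the 6 clusters of members, with the number of cells per matrix below each cluster. MHC class II genes peak at 81462 CPM in the cluster of 96 cells, fibroblast genes at 71631 CPM in the cluster of 29 cells and B and plasma cell genes at 40556 CPM in the cluster of 125 cells.

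RNA of other cell types was counted in members of every matrix. Epithelial genes summed to 6437 CPM in Met, 3156 in Ime and 4218 in CT members, against 66530, 42396 and 55017 CPM in the other cells. Fibroblast genes summed to 10195, 2386 and 7742 CPM, against 3031, 2667 and 2667 CPM in the other cells. B and plasma cell genes summed to 11390, 15540 and 12636 CPM, above the 4515, 9213 and 4770 CPM of the other cells. Lypd8, a gene of colon epithelium, had a UMI in 302 of the 310 Met members, against 7 Ime and 109 CT members. Neutrophil genes summed to 212, 214 and 179 CPM, against 369, 188 and 237 CPM in the other cells. T and NK cell genes summed to 133, 154 and 114 CPM, above the 49.5, 56.0 and 59.3 CPM of the other cells. The part of these other cell types in the differences between matrices was not tested, and doublets were not removed.

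For differences between matrices, UMIs were summed over members, and genes with 50 or more UMIs over both matrices were compared, counting those that differed 2-fold or more. In Met against CT members 6318 genes could be compared, of which 485 (7.68%) passed 2-fold in either direction: 388 (6.14%) were at least 2-fold higher and 97 (1.54%) at least 2-fold lower. In Ime against CT members 102 of 1990 genes (5.13%) passed it: 33 (1.66%) were higher and 69 (3.47%) lower, and in Ime against Met members 1110 of 5741 (19.3%) passed it, of which 313 (5.45%) were higher and 797 (13.9%) lower. None of the 20 lysosomal genes and none of the 21 complement and phagocytosis genes compared differed 2-fold between Met and CT, with medians of 0.07 on the log2 scale for both lists, against -0.003 for all genes.

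Several genes of dendritic cells were higher in Met than in CT members. Of 17 on the list, 11 reached 50 UMIs, and 6 of them were at least 2-fold higher, where 6.14% of all genes were. Most of those 6 reached 50 UMIs through Met alone, whose members hold 948988 UMIs against 279761 in CT, so the count leans towards Met by its construction and is given as a description. Clec9a, a receptor for dead cells on type 1 conventional dendritic cells, had 231 UMIs in 29 Met members and 8 UMIs in 6 CT members, 8.51-fold higher in Met (4.25 to 19.95) and 0.397-fold in other cells. Its log2 fold of 3.09 became 1.96 when 4 or more markers were required. Itgae, the CD103 integrin chain, had 127 UMIs in 19 Met members and 1 UMI in CT, a ratio of 37.4 (6.60 to 1490.3). The RNA sensor gene Tlr3 had 83 UMIs in Met and 3 in CT (8.16-fold, 2.70 to 40.4), a log2 fold of 3.03 that became 1.42 when each cell weighed the same. Zbtb46, a transcription factor of conventional dendritic cells, had 83 UMIs in Met and 4 in CT (6.12-fold, 2.30 to 23.0). Wdfy4, needed for cross-presentation, was 2.92-fold and Itgax 2.10-fold higher, and Cd209a 2.18-fold, or 1.58-fold without the Met cell that held the most. Xcr1, a chemokine receptor of the same cells, had 49 UMIs in 12 Met members and 0 in both Ime and CT members, which is at least 4.82-fold higher than CT when 3 counts over the group are taken as the floor. Batf3 and Irf4, factors needed for dendritic cell development, differed little, at 1.06-fold and 1.13-fold.

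Of 11 MHC class II genes, 2 were at least 2-fold higher in Met than in CT members, against the same 6.14% of all genes, namely Ciita, the master activator of the class (2.10-fold, 1.72 to 2.58), and H2-Oa (52 UMIs against 1, 15.3-fold, 2.63 to 617). H2-Oa reached the UMI minimum through Met alone. The count of 2 thus leans towards Met, as for the dendritic cell genes, and is given as a description. H2-Aa followed at 1.93-fold (1.75 to 2.13), whereas Cd74 stood at 1.11-fold and H2-Eb1 at 1.08-fold. In other cells, Ciita was at 0.875-fold and H2-Aa at 1.08-fold. The part of the Itgae cluster in these differences was not tested. Whole colon, measured with replicates but not in the same cells, mostly went the other way. For Metformin over Control, the median log2 fold change of these genes was -0.74, against -0.05 for all genes. Of the 11, 2 lay above 0, and edgeR called 2 higher and 0 lower, where 11.6% and 8.04% of all genes were. Whole colon also holds B and dendritic cells, whose listed genes were lower in Metformin 2 and 3 than in Control. Its values are thus not those of macrophages alone.

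Of 3 inflammatory cytokine genes compared, Il1b alone passed 2-fold between Met and CT members, where 7.68% of all genes did. It was lower in Met, and a list of 3 genes is too short to set against that share. Il1b, which encodes the cytokine interleukin 1 beta, had 24 UMIs in 14 Met members, 23 UMIs in 12 Ime members and 31 UMIs in 11 CT members, or 25.3, 197 and 111 CPM. Met stood at 0.228 times CT (0.128 to 0.402), and at 0.317 times without the CT cell that held the most. The monocyte attractants Ccl7 and Ccl8 stood at 0.370 (0.238 to 0.579) and 0.487 (0.283 to 0.856) times CT in Met members, and at 2.53 and 3.11 times CT in other cells. Of 12 chemokine genes compared, these 2 were at least 2-fold lower, where 1.54% of all genes were, and Cxcl12 was higher, while Ccl12 stood at 1.23-fold and Cxcl16 at 1.23-fold. Most Cxcl12 UMIs, 265 of them, lay in the fibroblast-gene cluster, at 1734 CPM against 7.88 to 64.7 CPM in the other clusters. Cd209f was at 0.457 times CT. Genes of lipid handling (0 of 14), iron handling (0 of 12) and growth and regulatory factors (0 of 10) did not pass 2-fold in either direction between Met and CT, where 7.68% of all genes did, so counts of 0 in lists this short are near the background.

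Some of the largest folds rested on 1 cell. Muscle genes were at least 2-fold lower in Met than in CT for 6 of 7 genes compared, where 1.54% of all genes were. The weight of a single cell is given for Cnn1 and Myl9 only. For Cnn1, 1 CT cell held 79 of the 82 CT UMIs, and without that cell Cnn1 was 2.03-fold higher in Met in place of 0.0755-fold. Myl9 stood at 0.282-fold with and 1.03-fold without the CT cell that held the most. Mucl1 owed 66 of its 73 Met UMIs, and Il17rb 59 of 60, to 1 cell. The dendritic cell genes kept their direction without their highest cell, at 7.26-fold for Clec9a and 30.6-fold for Itgae. Other genes named by size alone were Ccn2, Lama2 and Scara5, of fibroblasts and other stromal cells, at 8.02-fold (4.29 to 16.9), 15.9-fold (2.74 to 640.3) and 14.7-fold (2.53 to 594) in Met over CT, the last 2 against 1 CT UMI. Tmem191 (0.314-fold) and Tuba1b (0.371-fold) were lower in Met by about as much in the other cells, at 0.290-fold and 0.419-fold.

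**Figure D4:**
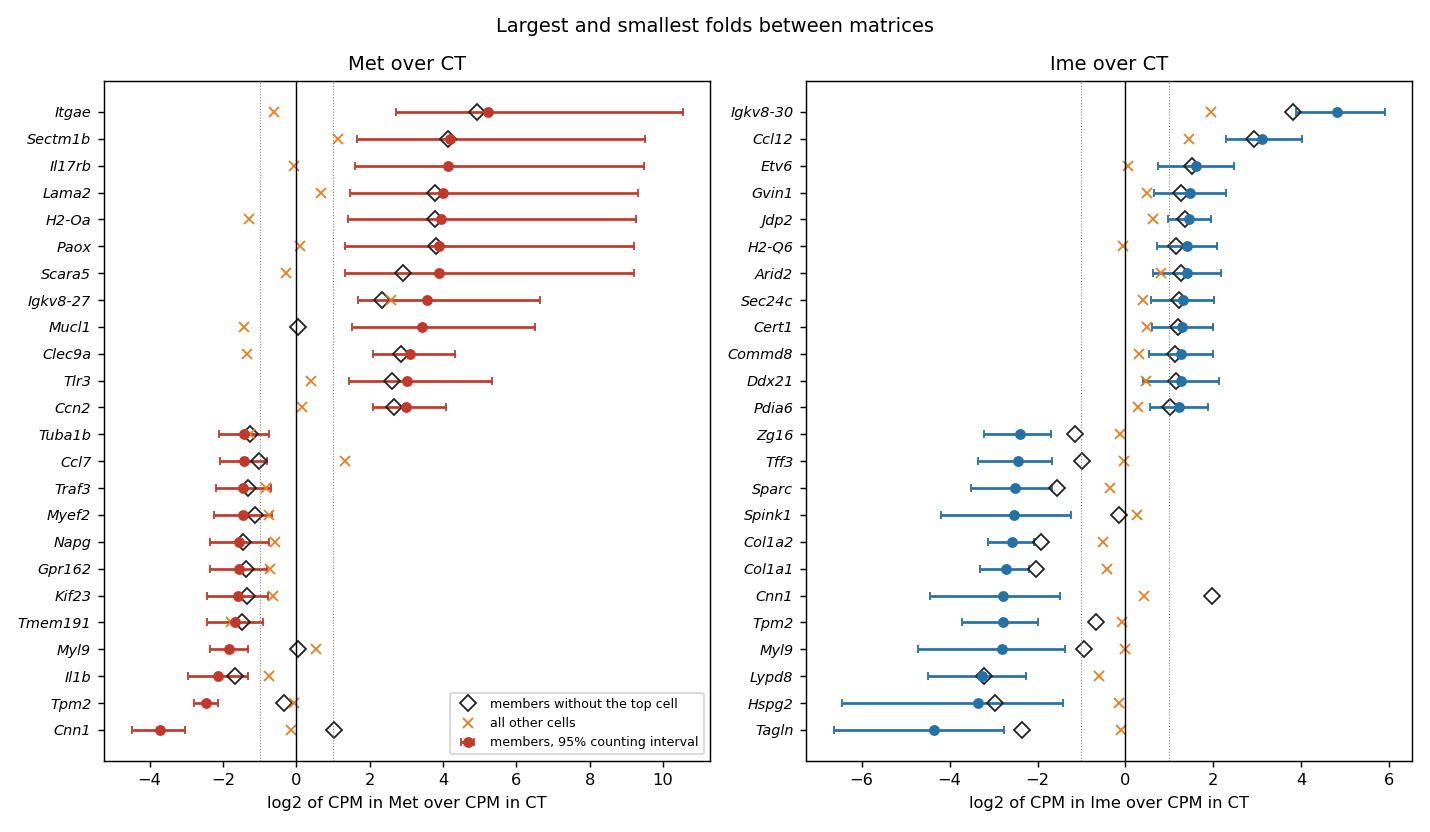
Fold of Met over CT and of Ime over CT for the named genes on a log axis, in members (filled, with 95% counting intervals), without the cell with the most UMIs in the higher matrix (diamonds), and in all other cells (crosses). Clec9a and Itgae lie right of the line in members and left of it in other cells for Met over CT, and Cnn1 crosses the line once its top cell is left out.

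Ccl12, a chemokine that attracts monocytes, was at least 2-fold higher in Ime than in CT members. It was the 1 of 6 chemokine genes compared that was higher, where 1.66% of all genes were. It had 58 UMIs in 20 of 129 Ime members, with at most 7 in 1 cell, 67 UMIs in 33 of 310 Met members and 16 UMIs in 15 of 196 CT members. That made 496 CPM (377 to 641) in Ime, 70.6 in Met (54.7 to 89.7) and 57.2 in CT (32.7 to 92.9). Ime was 8.67-fold above CT (4.92 to 16.2) and 7.03-fold above Met (4.86 to 10.1), against 2.72-fold and 1.37-fold in the other cells. Within the coarse group of 380 cells, Ccl12 stood at 794 CPM in Ime, 85.5 in Met and 65.4 in CT. Ccl12 is also a leading gene of the Cd209f cluster, which held 70 of 129 Ime, 6 of 310 Met and 88 of 196 CT members. For Ccl7, another monocyte attractant, Ime stood at 0.798 times CT (0.391 to 1.53). Jdp2, a transcriptional repressor, was 2.74-fold and Etv6, an ETS family repressor, 3.05-fold above CT in Ime members. Igkv8-30 was 28.0-fold above CT, but 59 of its 117 UMIs came from 1 cell, and probes for such near-identical antibody gene segments may not tell them apart.

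Of 11 resident macrophage genes compared, 3 were at least 2-fold lower in Ime than in CT members, where 3.47% of all genes were. None was higher, and the median log2 fold was -0.38. CT members hold 279761 UMIs against 116924 in Ime, so a gene reaches the UMI minimum more easily through CT. The count of 3 thus leans towards lower in Ime by its construction and is given as a description. The Lyve1 cluster held 2 of the 129 Ime and 26 of the 196 CT members. Fcna and Lyve1 lead that cluster, so these sizes depend on the same values and are not compared. Fcna had 17 UMIs in 10 Ime members and 168 UMIs in 61 CT members, 0.242 times CT (0.138 to 0.399). Lyve1 stood at 334 CPM in Ime and 826 CPM in CT (0.404 times, 0.280 to 0.569), and Gas6, a bridging protein for the uptake of dying cells, at 188 and 386 CPM (0.487 times, 0.293 to 0.776). In other cells these genes stood at 0.647, 0.736 and 0.623 times CT, in the same direction. Within the coarse group of 380 cells Fcna was at 260 CPM in Ime and 1053 CPM in CT. Cd163 (0.767 times), Folr2 (0.730) and Stab1 (0.900) stayed within 2-fold, and none of the 10 MHC class II genes or 16 lysosomal genes compared passed it. The lowest folds of Ime to CT belonged to genes of other cells, such as Col1a1 (30 against 474 UMIs, 0.151 times) and Lypd8 (8 against 184 UMIs, 0.104 times). The fibroblast-gene cluster held 3 Ime and 6 CT members.

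Between the drugs, Ime members were lower than Met members for 5 of 11 dendritic cell genes and 3 of 11 MHC class II genes, where 13.9% of all genes were, Ciita (0.484 times, 0.354 to 0.648) and H2-Aa (0.460 times, 0.391 to 0.537) among them. Both counts lean by the same UMI minimum, and nothing is read from them. The monocyte-list gene Plac8, which epithelial cells also express, had 7 UMIs in Ime and 359 in Met members (0.158 times). Higher in Ime than in Met were Ccl12, Cd209f (3.14-fold, 2.08 to 4.66), the phospholipase gene Pla2g2d (3.77-fold), and Ccl8 (2.56-fold, 1.22 to 5.01). Tnf, below the 50 UMIs required, had 10 UMIs in Ime, 16 in Met and 2 in CT members. The mitochondrial gene mt-Nd6 was 5.14-fold higher in Ime members and 5.07-fold higher in the other cells. With doses of the 12-week treatment not stated and 1 matrix each, no test of a difference between the compounds was possible in these cells.

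Of 12 interferon-induced genes compared, 2 (Isg15 and Ifitm3) were at least 2-fold higher in Met than in CT members, where 6.14% of all genes were, and the median log2 fold was 0.18, against 1.57 for the same genes in all other cells. Oas2, an antiviral sensor, had 269 CPM in Met and 218 CPM in CT members (1.23-fold, 0.929 to 1.66), whereas in other cells it had 57.8 CPM in Met and 6.98 CPM in CT (8.27-fold). Irf7, the factor that amplifies the interferon response, was 1.61-fold higher in Met members (0.991 to 2.73) and 5.41-fold in other cells, and Oasl2 0.845-fold (0.576 to 1.26) and 4.78-fold. The levels of Oas2 in members of Met and CT thus overlapped within counting error. In Ime members Oas2 was at 68.4 CPM, 0.314 times CT (0.130 to 0.658), and in other Ime cells 2.04 times CT. Among members, Oas2 stood at 618 CPM in the Lyve1 cluster against 164 CPM outside it. That cluster held 67 Met, 2 Ime and 26 CT cells, and its part in the Oas2 values was not tested. The difference between members and other cells was not tested, since the other cells hold many types.

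Genes tied to the proposed targets of the drugs were measured as well. Complex I of the respiratory chain, which metformin inhibits at high doses, summed to 2892 CPM over 36 subunit genes in Met, 2241 in Ime and 2845 in CT members, and 1 of 26 genes compared passed 2-fold between Met and CT, near the 7.68% of all genes. Glycolysis genes summed to 1325, 1240 and 1365 CPM. In the list of AMP-activated kinase, mTOR and drug transporter genes, 1 of 11 passed 2-fold (Prkab2, 2.40-fold). The transporter genes Slc22a3 and Slc29a4, which carry organic cations, had 1 and 0 UMIs over all members.

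Whole colon offers a replicated view of the same genes at 4 weeks, but not of the same cells. Of 26 macrophage genes, members of the single-cell matrices held between 0.845% (Ctss) and 41.9% (Trem2) of all single-cell UMIs among the 25 probed, and in bulk tissue fewer macrophages and less RNA per macrophage cannot be told apart. Library totals ran from 32236291 to 44373717 reads. The labels do not say whether replicates were separate animals, and the p-values below therefore reflect variation among libraries, which may be technical.

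Against Control, C1qa and Spi1 were called lower and Ctss higher in metformin colon, and both lower calls were lost with RLE scaling, with no filter and with only the 2 groups fitted. C1qa had 17.7, 13.9 and 12.7 CPM in Metformin, 16.3, 16.8 and 19.0 CPM in Imeglimin and 23.7, 21.6 and 16.4 CPM in Control libraries. The Metformin and Control libraries overlapped in 1 pair, and the log2 fold change was -0.49 ± 0.15 (SE), with an edgeR quasi-likelihood adjusted p of 0.0462. Spi1, which encodes PU.1, had 2.71, 2.00 and 1.96 CPM in Metformin, 2.09, 2.60 and 3.21 CPM in Imeglimin and 4.17, 3.55 and 3.10 CPM in Control. Metformin lay below every Control library (log2 fold change -0.72 ± 0.22, edgeR adjusted p = 0.0490). Ctss, the cathepsin that trims the invariant chain, had 471, 460 and 496.5 CPM in Metformin, 399, 426 and 562 CPM in Imeglimin and 361, 326 and 356 CPM in Control, all treated libraries above all Control libraries. Its log2 fold change was 0.43 ± 0.12 for Metformin (edgeR adjusted p = 0.0310) and 0.39 ± 0.12 for Imeglimin (edgeR adjusted p = 0.0588). Members held 0.845% of the single-cell Ctss UMIs.

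These calls were few. In Metformin over Control, 1 of the 26 genes was called higher, where 11.6% of all 18665 genes were, and 2 were called lower, where 8.04% were. The median log2 fold change of the list was -0.30, against -0.05 for all genes, and 5 of 26 lay above 0. Lyz2 had 77.9, 43.1 and 37.3 CPM in Metformin and 103, 90.2 and 70.0 CPM in Control libraries (log2 fold change -0.75 ± 0.25, edgeR adjusted p = 0.0587). The Metformin 1 library, the highest of its group for Lyz2, lay near Control for genes of other immune cells, while Metformin 2 and 3 lay below it. The mean log2 CPM of B and plasma cell genes was 4.81, 2.91 and 2.55 in the 3 Metformin and 4.62, 4.79 and 4.97 in the 3 Control libraries. That of T and NK cell genes was 0.60, -0.39 and -0.66 in Metformin and 0.67, 0.61 and 0.63 in Control, and that of dendritic cell genes 1.36, 0.32 and 0.63 in Metformin and 1.58, 1.40 and 1.43 in Control. Their part in the macrophage values was not tested. Without Metformin 1, 6 genes of the list were called lower. The calls for C1qa, Spi1 and Ctss were unstable: without 1 library at a time the edgeR adjusted p ran from 0.0188 to 0.153 for C1qa, from 0.0345 to 0.153 for Spi1 and from 0.0602 to 0.104 for Ctss. C1qa was called without Control 3 or Metformin 1, Spi1 without Metformin 1, and Ctss in none of the 6 fits. With the replicate number as a block 4 genes were called lower, namely C1qa, Lyz2, Mpeg1 and Cybb, and Spi1 was not (edgeR adjusted p = 0.0741).

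In Imeglimin over Control, no gene of the list was called by edgeR in either direction, where 7.97% of all genes were called higher and 5.07% lower, 1 had an unadjusted p under 0.05, and DESeq2 called 1. With the replicate number as a block Ctss was called higher (edgeR adjusted p = 0.0404). In Imeglimin over Metformin, where 0.145% of all genes were called higher and 0.466% lower, edgeR likewise called none, 1 had an unadjusted p under 0.05, and DESeq2 called 1. The log2 difference between the drugs was 0.23 for C1qa (95% interval -0.10 to 0.57), 0.25 for Spi1 (-0.25 to 0.75) and -0.04 for Ctss (-0.31 to 0.22), and these intervals leave room for differences of either sign. The fractalkine receptor gene Cx3cr1, the 1 gene called by DESeq2, had 6.50, 7.47 and 7.72 CPM in Imeglimin and 4.91, 2.73 and 3.89 CPM in Metformin libraries, which did not overlap (log2 0.91, 95% interval 0.27 to 1.56, edgeR adjusted p = 0.139). In Metformin over Control, 7 of 12 fibroblast genes and 7 of 12 muscle genes were called lower, where 8.04% of all genes were.

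**Figure D5:**
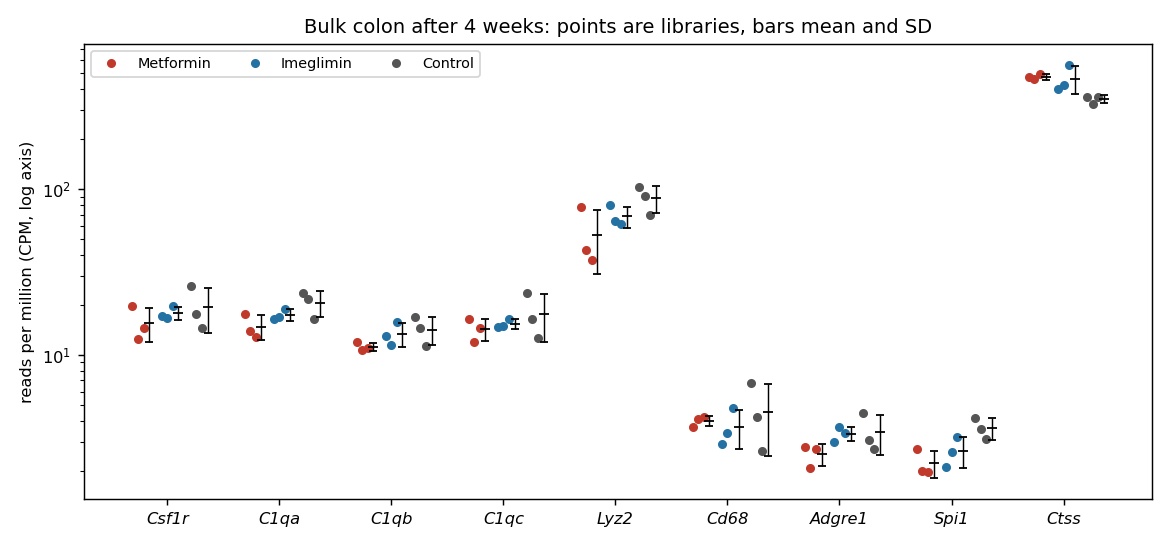
Level of the 7 markers, Spi1 and Ctss in whole colon after 4 weeks, in CPM on a log axis, with 1 point per library and bars for the mean and SD (n = 3). Metformin libraries lie below all Control libraries for Spi1 and above them for Ctss, while C1qa overlaps in 1 Control library (16.4 CPM).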

How the data were processed

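Single-cell values were UMI counts per gene and cell, deposited as 3 filtered matrices that Cell Ranger 9.0.0 wrote, per the file headers. Bulk values were raw read counts per gene in a table deposited by the authors. Builds mm10 and GRCm39 and the tools HISAT2, StringTie, Trimmomatic and FastQC appear in the submitters' processing notes, without a role. Members and gene lists were chosen with earlier results of these data known. UMIs were summed over members and divided by the members' total (CPM). Ratios have conditional exact intervals, and a count of 0 was set to a floor of 3 counts over the group. No doublet caller was run. Members were clustered with scanpy 1.11.5 (2000 variable genes, 20 components, 15 neighbours, Leiden resolution 0.5). The text names the 7 markers, the 25 most abundant genes and the 25 of highest ratio to other cells, up to 12 largest folds per direction among genes with 50 or more UMIs and intervals that do not overlap, and list members. Bulk colon was fitted with edgeR 4.0.16 in R 4.3.3, 9 libraries in 1 fit, TMM scaling, filterByExpr and Benjamini-Hochberg adjustment at 0.05. DESeq2 1.42.0 was an alternative. The fold comparison and the bulk fit were tested on simulated data; the clustering was not. The batch tag of the bulk samples equals the replicate number of their titles, so a number may mark a shared batch. The main fit had no block for it, and the fit with the block is given as an alternative. The 9 pairs of libraries with the same number correlated in their deviations from the group means at 0.0687 on average, with 3 pairs above 0.1, and 18 other pairs at -0.0344. Deviations cancel out within a group, so the second average follows largely from the first and is no separate comparison. The alternatives were other marker numbers, UMI minimums, scalings, left-out cells, clusters and libraries.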

Additional observations from a re-analysis of the deposited data

How the results depend on the processing

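Members as a share of cells in Met, Ime and CT became 3.13%, 4.27% and 3.31% with 2 or more markers, 1.93%, 1.501% and 1.82% with 4 or more, 2.06%, 2.03% and 2.04% without Lyz2, and 0.271%, 1.54% and 0.950% without cells holding other lineages' genes, which left 35, 73 and 76 members. Thinned to 500 UMIs, Ime stood at 1.93% and CT at 1.83%. Genes past 2-fold in Met over CT, Ime over CT and Ime over Met numbered 62, 10 and 151 with 200 or more UMIs, 1727, 1376 and 2618 with 10 or more, and 36 of 446, 24 of 452 and 41 of 310 genes compared without other-lineage cells, against 485 of 6318, 102 of 1990 and 1110 of 5741. Ime over CT gave 65 with 4 or more markers. The share of those genes that were higher was 80.0%, 32.4% and 28.2%, and became 67.7% with 10 or more UMIs and 63.9% without other-lineage cells in Met over CT, 20% with 200 or more UMIs in Ime over CT, and 43.5% with 10 or more UMIs and 41.5% without other-lineage cells in Ime over Met.

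Alternatives chosen after seeing the data were these. With 1 Epcam UMI allowed, members were 3.77% of Met and 2.85% of CT cells. Set against the fold in other cells, 8.54% (Ime over CT) and 9.28% (Ime over Met) of the genes past 2-fold were higher, and log2 folds reversed to 0.12 for Tmem191 (Met over CT), -0.69 for Ctrb1 and -0.36 for Dimt1 (Ime over Met). Without each gene's top cell in the higher matrix, 66 genes passed in Ime over CT, and log2 folds reversed to 0.0477 for Myl9 and 1.03 for Cnn1 (Met over CT) and 1.98 for Cnn1 (Ime over CT). Over the 663 values of single named genes under all single-cell alternatives, 591 stayed within the lower arm of their counting interval, 66 moved by more and 6 reversed.

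In bulk colon, Metformin over Control, macrophage genes called lower numbered 0 with RLE scaling, 0 with no filter, 0 with only the 2 groups compared, 4 with DESeq2 and 4 with the replicate block, and leaving out 1 library gave 0 to 6 lower and 0 to 0 higher. Imeglimin over Control gave 1 higher with the block, 1 with DESeq2 and 0 to 1 without 1 library, and Imeglimin over Metformin 1 higher with DESeq2. Beyond Lyz2, Mpeg1, Cybb, Spi1 and Ctss the block changed no call in the list. Leaving out 1 library turned log2 fold changes of genes that were not called: Cd68 (Metformin over Control) from -0.47 to 0.20, Csf1r -0.29 to 0.13, C1qb -0.24 to 0.0277, C1qc -0.38 to 0.0606, Cd68 -0.58 to 0.0867 and Adgre1 -0.17 to 0.19 (Imeglimin over Control), C1qc -0.00594 to 0.22, Cd68 -0.36 to 0.0208 and Ctss -0.22 to 0.0425 (Imeglimin over Metformin). The causes were not tested.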
